A study of Mus musculus with 3 samples.

Results

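The 146 viewpoints described here are promoter fragments of genes that attach ubiquitin to proteins or take it off again, among 7181 viewpoints whose names were listed once. They were chosen by name alone: a gene symbol starting with Ube2, Ube3, Otub, Fbxo, Fbxw or Fbxl, or with Usp or Rnf followed by a digit. They held 25 Ube2 viewpoints, 2 Ube3 viewpoints, 35 Usp or Otub viewpoints, 38 F-box viewpoints and 46 Rnf viewpoints, which stood for 142 genes. Ube2m met the rule but was listed more than once and was left out. The rule takes in a few genes by name only, such as Usp6nl, which encodes a GTPase-activating protein, and Ube2dps, in whose fragment no protein-coding start site was annotated. The fragments of Rnf4, Rnf113a2 and Wdr53_Fbxo45 held no such site either. Those of Usp37_Cnot9 and Trip12_Fbxo36 held only starts annotated to Rqcd1 and Trip12, and none named Usp37 or Fbxo36. Of the 146 fragments, 26 also carried the name of another gene, and contacts of such a fragment cannot be assigned to either of its genes. The same limit applies to fragments that hold the start of a second gene without its name, such as those of Ube2a, Fbxo44, Usp49 and Rnf41.

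Contacts were measured by nuclear-titrated (NuTi) Capture-C, in which DNA is cut in fixed nuclei with DpnII, neighboring ends are ligated, and fragments joined to a targeted viewpoint are pulled out with oligonucleotides and sequenced. The 3 libraries formed 1 group, ter119+ erythroid cells from the spleens of F1 hybrid (C57BL/6-cross-CBA/J) mice. The mice had received 3 doses of phenylhydrazine, 40 mg per g body weight each as the labels give it, 12 h apart, and were killed on day 5. Phenylhydrazine destroys red cells and so fills the spleen with their precursors. There was no untreated or non-erythroid group, so each value below is set against the count expected at its distance, or against all viewpoints, and not against another condition. Letters a, b and c stand for the libraries, since their columns carried no names, and whether they came from separate mice is not given in the sources used here, so the spread between them may be technical.

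Ubiquitin is a small protein that is passed from an activating enzyme (E1) to a conjugating enzyme (E2, the Ube2 family) and then joined to a target protein with the help of a ligase (E3). HECT ligases such as the Ube3 proteins carry ubiquitin themselves, while RING proteins, to which most Rnf genes belong, bring the loaded E2 to the target. F-box proteins are the exchangeable subunits by which SCF-type cullin ligases recognize their targets, and Usp and Otub proteins are deubiquitinases, which cut ubiquitin off. Maturing red cells use this system to clear proteins and organelles as they give up their nucleus.

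The sequences below are those of 4 of the promoters with a window called whichever library was left out, followed by contacted fragments. For each promoter, up to 200 bases before the start site annotated in GENCODE vM1 are given on the strand of the gene (mm9), with motif letters in capitals. The motifs were searched on both strands, with overlaps allowed. The letters CCGGAAG stand for ETS factors, CCAAT for NF-Y, GGGCGG for SP1, GCGCATG for NRF1 and AAGATGG for YY1. GATA factors were searched by the letters AGATAA and, as another form of the same motif, by the letters TGATAA.
Fbxo9 (F-box), chr9:77956464-77956663, minus strand: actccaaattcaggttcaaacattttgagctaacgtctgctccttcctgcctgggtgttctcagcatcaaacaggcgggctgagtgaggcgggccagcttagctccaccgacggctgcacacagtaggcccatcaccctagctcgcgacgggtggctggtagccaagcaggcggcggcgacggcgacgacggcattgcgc
Fbxo33 (F-box), chr12:60320713-60320816, minus strand: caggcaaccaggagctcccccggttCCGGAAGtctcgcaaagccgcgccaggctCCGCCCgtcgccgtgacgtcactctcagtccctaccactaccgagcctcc
Fbxo30 (F-box), chr10:11000928-11001127, plus strand: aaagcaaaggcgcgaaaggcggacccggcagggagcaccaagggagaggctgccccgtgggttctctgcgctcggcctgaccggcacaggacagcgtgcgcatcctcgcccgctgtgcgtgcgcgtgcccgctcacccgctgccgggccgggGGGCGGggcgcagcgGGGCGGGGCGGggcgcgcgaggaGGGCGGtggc
Eldr_Fbxo48 (F-box), chr11:16851178-16851377, plus strand: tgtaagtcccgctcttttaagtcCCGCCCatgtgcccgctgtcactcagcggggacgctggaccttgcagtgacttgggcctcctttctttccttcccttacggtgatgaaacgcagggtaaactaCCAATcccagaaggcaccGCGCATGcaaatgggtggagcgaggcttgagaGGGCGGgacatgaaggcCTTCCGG

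These stretches were rich in G and C, from 58.5% for Eldr_Fbxo48 to 77.5% for Fbxo30. The Fbxo30 stretch held 4 copies of the SP1 letters, of which 2 overlapped, the Eldr_Fbxo48 stretch held 5 matches of 4 motifs, and the Fbxo9 stretch held none of the motifs. Over the whole viewpoint fragments, the SP1 letters were found in 131 of 146 members (89.7%), against 79.3% of all viewpoint fragments. The ETS letters were found in 55 members (37.7%), against 31.5% of all, the YY1 letters in 35 (24%), against 19.6%, and the GATA letters in 46 (31.5%), against 29.7%. The other two motifs were found in a smaller share of members than of all fragments, NF-Y in 82 (56.2%), against 59.4%, and NRF1 in 16 (11%), against 11.9%. Member fragments had a median length of 913 bp, against 742 bp over all viewpoints, and the part of length in these shares was not tested. In RefSeq promoters of 1 length (GRCm38.p6, from 250 bases before to 50 after the start, 140 promoters for 106 of the 142 genes), the SP1 letters were in 72.1% and the ETS letters in 27.1%, against 35.7% and 8.86% of all 32851 promoters, which include genes that were no viewpoints. In the same promoters, the YY1 letters were in 15%, against 6.34% of all, and the NRF1 letters in 6.43%, against 3.91%. The NF-Y letters were in 29.3%, against 37.4% of all, and the GATA letters in 3.57%, against 18.6%. For NRF1 and GATA the direction was thus the opposite of that in the fragments.

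Contacted fragments are shown from their first base on the plus strand, with the DpnII site in capitals. Those of Fbxo9, Fbxo33 and Eldr_Fbxo48 gave the most events within a called window that held against leaving out each library, for Fbxo33 the one 215 kb away. That of Usp9x was called as a single fragment and lies in no called window. The word intergenic here means outside annotated protein-coding genes.
Contacted by Fbxo9, intron of Gclc, chr9:77606150-77606349: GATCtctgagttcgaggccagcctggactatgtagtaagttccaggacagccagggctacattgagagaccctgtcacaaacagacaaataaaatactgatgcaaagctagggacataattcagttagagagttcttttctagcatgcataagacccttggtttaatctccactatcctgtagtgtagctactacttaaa
Contacted by Fbxo33, intron of Sec23a, chr12:60103734-60103933: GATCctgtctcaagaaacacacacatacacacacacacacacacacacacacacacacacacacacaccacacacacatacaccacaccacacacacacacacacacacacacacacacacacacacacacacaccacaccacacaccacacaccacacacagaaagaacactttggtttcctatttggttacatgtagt
Contacted by Eldr_Fbxo48, intron of Wdr92, chr11:17117988-17118187: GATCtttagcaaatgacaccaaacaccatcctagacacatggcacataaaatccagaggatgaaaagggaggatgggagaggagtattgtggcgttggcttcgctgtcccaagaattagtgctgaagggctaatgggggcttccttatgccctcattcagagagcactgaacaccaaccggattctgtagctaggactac
Contacted by Usp9x, intergenic, chrX:12051465-12051664: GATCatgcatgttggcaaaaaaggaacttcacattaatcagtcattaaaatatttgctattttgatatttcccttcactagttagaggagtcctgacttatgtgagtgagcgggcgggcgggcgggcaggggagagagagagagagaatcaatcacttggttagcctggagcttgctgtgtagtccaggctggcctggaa
The Fbxo33 partner holds a long run of CA repeats at this end, and the Usp9x partner holds shorter runs of GGGC and of GA. Known repeat families were not looked up for these stretches. None of these fragments shared a word of 30 bases with its viewpoint.

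Depth differed widely among the members. The summed cis events per member, which are unique ligations within the chromosome worked back to whole numbers from the deposited values, reached 109838 with a median of 7711, against a median of 6479 over all viewpoints. The member medians were 1490.5 events in library a, 2995.5 in b and 3018.5 in c, so library a was the shallowest. The 5 deepest members were Fbxo9 (109838 events), Usp3 (108756), Fbxo22 (107448), Ube2cbp (92833) and Usp14 (84996). Among the shallowest were Fbxo47 (543), Fbxo5 (586), Ube3a (593) and Rnf135 (863). In all, 9 members fell under the minimum of 1000 events, which left 137 members to test. Chromosome X and a stretch of chromosome 9 (chr9:50411503-99476096) were covered more deeply than the rest of the genome. Their 9 members had a median of 54214 events against 6823 for members elsewhere, and Fbxo9, Ube2cbp, Fbxo22 and Usp3 lie there.

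**Figure D1:**
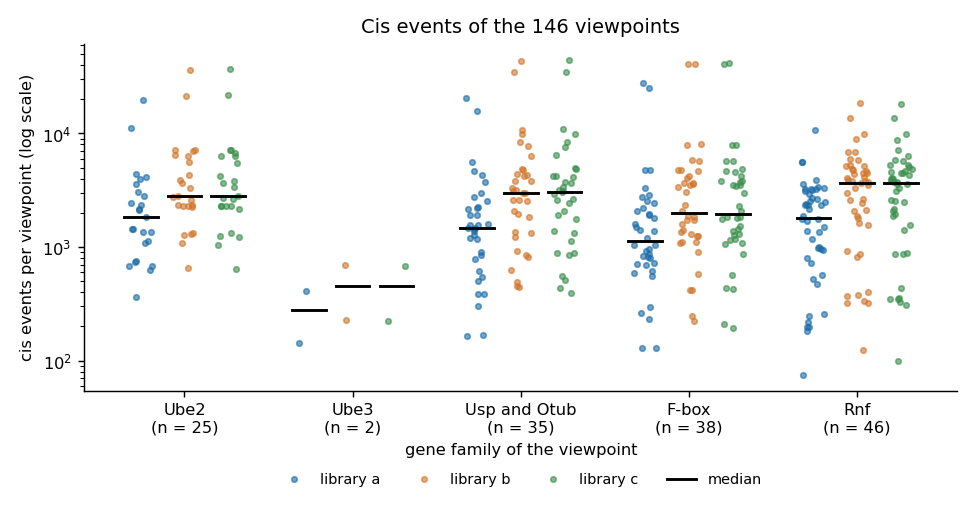
Cis events of each member viewpoint (log axis) in libraries a, b and c, by gene family; each point is 1 viewpoint and the black bars are medians. The members spread widely in every library, up to 27772 events in library a, and the medians of library a lie below those of b and c.

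The libraries were alike in the shape of the contact profiles. Over 5 kb windows the squared correlation had a median of 0.839 between a and b, 0.838 between a and c and 0.878 between b and c over the 137 members. It reached 0.988 for Usp14 between b and c and 0.985 for Fbxo9, the deepest member, between a and b, and fell to 0.348 for Fbxw8 between a and c. This correlation was of counts, and so takes in the fall of counts with distance that all libraries share. By itself it does not show that contacts above the level set by distance repeat between libraries. A chi-square of the counts per window, which is 1 where only counting error separates 2 libraries, was 1.04 between b and c and 1.12 in each pair with a. Since b and c stood closest to each other, errors are given as the SD of 2 values, library a and the mean of b and c. A ratio printed with an SD is the mean of these 2 values, so it can differ from the ratio of the summed counts. The adjusted p belongs to the summed counts. Other ratios are of summed counts unless a library is named.

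Of 12 erythroid genes listed to describe the cell type, 9 were among the viewpoints. Of these, 7 (77.8%) had a called window, against 18.1% of all viewpoints. The list was made with earlier results of these data known, and it holds the globin genes and Slc25a37, which the paper treats as well-characterized loci. The globin genes are also related in sequence and were counted singly, so this is no independent check. Hba-2 and Hbb-b1, which encode alpha and beta globin, had 7 windows each, and Klf1, an erythroid transcription factor, and Epor, the erythropoietin receptor, had none. None of 6 genes of other blood cells was in the viewpoint list, so other cell types could not be checked.

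Across the members, a median of 42.6% of cis events lay between 2.5 kb and 1 Mb from the viewpoint, against 42.3% over all viewpoints. The member median was 46.1% in library a, 41.9% in b and 42.2% in c. A further 21.3% (median) lay from 1 to 10 Mb away and 33.8% beyond. By family the median was 44.1% for Ube2, 39.6% for Usp and Otub, 41.3% for F-box and 44.3% for Rnf members, and the quartiles of all members, 36.6% and 49.0%, take in each of these. The spread among members was wider than among libraries. Among the 137 members tested, Rnf123, a RING protein that acts on the cell cycle inhibitor p27, had the highest share, 72.4%, 70.5% and 71.3% in a, b and c, and Fbxo8_Cep44 the lowest, 23.3%, 24.9% and 24.3%. Rnf123 had 39 other viewpoints within 1 Mb and Fbxo8_Cep44 had 1.

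**Figure D2:**
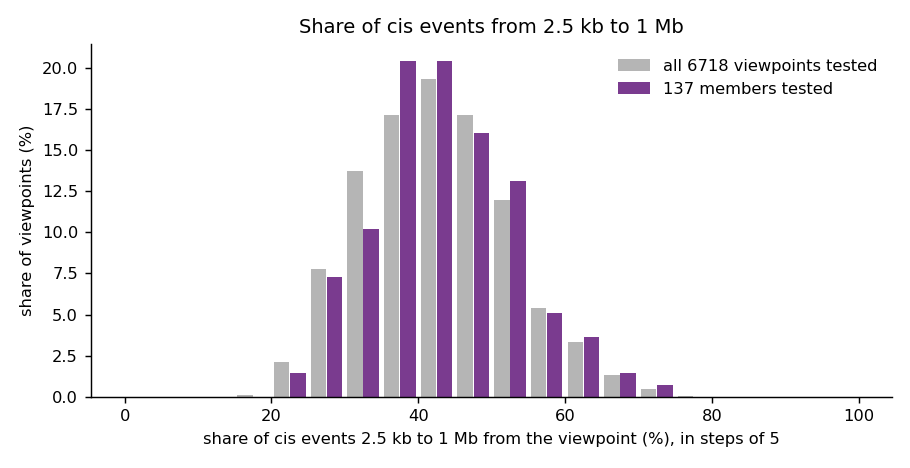
Share of viewpoints (y axis, %) by the share of their cis events that lay 2.5 kb to 1 Mb away (x axis, %), for the 137 members tested (purple) and all 6718 viewpoints tested (gray). Both sets peak around their medians of 42.6% and 42.3%, and the members span 24.3% to 71.3%.

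Contacts were split nearly evenly between the sides of most members. The larger side took a median of 56.1% of the events from 2.5 kb to 1 Mb, against 56.8% over all viewpoints. Fbxo33 was the most one-sided member with at least 1000 events in this range. Towards lower coordinates lay 82.8% of its events in library a, 84.9% in b and 85.5% in c. It was followed by Rnf6 (72.2%). Among members with at least 1000 events in range, Fbxl12 (50.2%), Fbxw4 (50.5%), and Usp1 and Rnf31 (50.6% each) were the least one-sided.

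To find contacts above the level set by distance, counts in 5 kb windows were tested with a negative binomial model against the count expected from the distance and the total of the viewpoint. A window was called at an adjusted p under 0.05 with every library above expectation. Over all 6718 viewpoints, 2246 of 2642561 windows were called (0.085%), and 1218 viewpoints had at least 1 called window (18.1%). Among the members, 28 windows were called, at 15 of 137 (10.9%). This used a dispersion estimate that was corrected after a first result had been seen. The estimate as first laid down, without that correction, called 56 windows at 22 members (16.1% of 137), against 26.2% of all viewpoints. The members' share was thus below that of all viewpoints in both fits. It was 11.5% against 19.5% for viewpoints with 5000 to 30000 events, 4.76% against 16.1% with 1000 to 5000, and 3 of 8 members (37.5%) against 16.9% above 30000.

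Which windows were called depended on the libraries. Of the 28, 6 were called whichever library was left out, and these belonged to Fbxo9, Fbxo30, Fbxo33 (2 windows), Eldr_Fbxo48 and Ube2cbp. Without library a 19 windows were called, without b 15 and without c 11, at 11, 11 and 7 members. The median distance of the called windows was 312 kb, against 215 kb for all viewpoints. Ube2cbp alone gave 6 of the 28, from 555 to 720 kb, and without it the median of the other 22 was 242.5 kb. Some called windows of the same member adjoin each other, so the 28 are not 28 separate contacts. Of the 28, 5 (17.9%) held another viewpoint and 6 (21.4%) the start of a protein-coding gene, against 27.5% and 40.2% of the called windows of all viewpoints and 3.86% and 14.5% of all windows tested for the members.

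**Figure D3:**
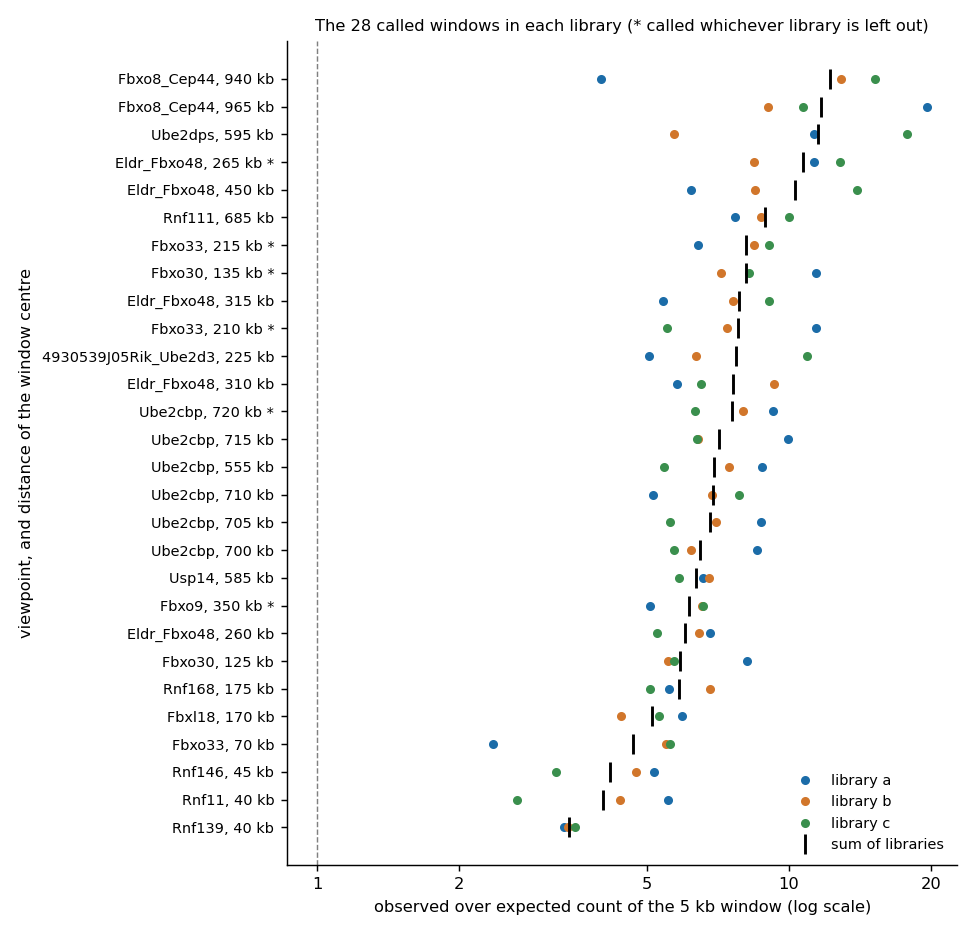
Observed over expected count (x axis, log scale) in libraries a, b and c and in their sum for each of the 28 called windows, named by viewpoint and distance, with 1 marking expectation. All points lie above 1, which the calling rule requires of each library. The libraries of the Fbxo8_Cep44 windows lie far apart, and those of Rnf139 lie together near 3.4.

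Of the 25 viewpoints with a Ube2 name, 3 had a called window (12%, against 18.1% of all viewpoints). Among these only the Ube2d3 viewpoint belongs to a conjugating enzyme. Ube2cbp, whose product binds the conjugating enzyme Ube2c, had 6, the most of any member. Its window 720 kb away, which holds a start site of Ibtk and was contacted most in an intron of that gene, held 23, 39 and 31 events in a, b and c where 12.3 were expected in all, a ratio of 8.19 ± 1.48 (SD; negative binomial adjusted p = 0.0126). The neighboring window holds a start site and the targeted promoter of Ibtk, which encodes an inhibitor of Bruton's tyrosine kinase, and had 34, 43 and 43 events against 16.9 expected, and was no longer called without library a. A window on the other side, 555 kb away at Ripply2, had a ratio of 7.60 ± 1.65 (negative binomial adjusted p = 0.0166) and was called only with library c left out among the leave-one-out fits. In each library the ratios of all 6 windows lay above 5. Those from 700 to 720 kb adjoin each other as a single stretch, chr9:85635783-85660782, so the 6 windows are not 6 separate contacts. Ube2cbp lies in the deep stretch of chromosome 9.

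The promoter shared by Ube2d3, one of the widely used conjugating enzymes, and 4930539J05Rik had 1 called window, 225 kb away over the start of Cenpe, which encodes a kinetochore motor. It held 3, 6 and 10 events against 2.46 expected (ratio 6.83 ± 2.53, negative binomial adjusted p = 0.0179) and was not called without library c. Ube2dps had the highest ratio of the family, 11.5 ± 0.314 (negative binomial adjusted p = 0.0376), in a window in Ogdh 595 kb away, but on 2, 2 and 6 events. The ratios were 11.3, 5.69 and 17.8 in a, b and c, a spread that the SD hides because b and c are averaged in it, and the window was not called without a or without c. No window was called for the conjugating enzymes with a known place in red cells or cell cycle exit. Ube2h, which works with the CTLH ligase in erythroid cells, had 10069 events in all, Ube2c of the anaphase-promoting complex had 9467, and Ube2l6, which conjugates the ubiquitin-like Isg15, had 13513. Ube2o met no viewpoint name.

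Of the HECT ligases, only Ube3c was deep enough to test, with 1776 events, and it had no called window. Ube3a had 143, 227 and 223 events in a, b and c, and 19.9% of them lay from 2.5 kb to 1 Mb away.

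Among the viewpoints with a Usp or Otub name, which include Usp6nl, 1 of 35, Usp14, had a called window (2.86%, against 18.1% of all viewpoints). Usp14 encodes a deubiquitinase of the proteasome. Its window lay 585 kb away and overlapped the targeted promoter fragment of Snrpd1, which encodes a core protein of the spliceosome. This window held 14, 31 and 27 events against 11.3 expected. The ratio was 6.43 ± 0.191 (negative binomial adjusted p = 0.0389), with the libraries close together. It was not called once any 1 library was left out.

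Usp9x, an X-linked deubiquitinase, was the member with a called single DpnII fragment. Over all viewpoints 248 of 28839794 fragments were called (0.00086%), at 155 viewpoints (2.31%), and among the members it was 1 fragment at 1 of 137. The fragment, chrX:12051465-12051978, lies 597 kb from the promoter and outside annotated protein-coding genes. It held 10, 9 and 12 events in a, b and c against 0.985 expected in all (negative binomial adjusted p = 0.000206 on the sum). The mean of the ratio in library a and the mean ratio of b and c was 36.4 ± 12.7. The members' count of called fragments was 1 with each library left out. The first bases of the fragment are shown above.

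No window was called for Usp18, which removes Isg15 and had 7506 events, or for Otub1, which restrains the conjugating enzyme Ube2n and had 11888. Usp7 was not among the viewpoints that met the rule. Usp3, which removes ubiquitin from histones, was the second deepest member and had no called window. Beside the promoter of Fam96a, 466 kb away, its counts were 11, 22 and 19 against 11.3 expected, a ratio of 4.60 that was not tested by itself.

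Among the F-box viewpoints, 6 of 36 tested had a called window, with 14 windows in all. Their share of 16.7% was near the 18.1% of all viewpoints. Eldr_Fbxo48 had 5 of them. The highest lay 265 kb away in Wdr92, with 6, 11 and 16 events against 3.08 expected (ratio 10.9 ± 0.512, negative binomial adjusted p = 7.6e-05), and was called whichever library was left out. The library ratios were 11.3, 8.42 and 12.8, a wider spread than the SD shows, since b and c are averaged in it. The next window, 260 kb away, holds the starts of Wdr92 and Pno1, a ribosome assembly factor, and had a ratio of 6.32 ± 0.666 (negative binomial adjusted p = 0.0315). Further windows lay over the start of C1d, an exosome cofactor (315 kb, ratio 6.87 ± 2.08), beside it (310 kb, 6.84 ± 1.49), and at Sec61g on the other side (450 kb, 8.68 ± 3.52). The viewpoint is shared with Eldr, so these contacts cannot be assigned to Fbxo48 alone.

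Fbxo33 had 3 called windows, all on its favored side. Those at 215 and 210 kb lie in Sec23a, which encodes a coat protein of transport vesicles, and the second holds its start site. They held 9, 17 and 17 events against 5.30 expected and 14, 13 and 9 against 4.63, with ratios of 7.58 ± 1.65 (negative binomial adjusted p = 0.00107) and 8.91 ± 3.47 (negative binomial adjusted p = 0.00224). On summed counts the ratios were 8.11 and 7.78, so the order turns round. Both windows stayed called without any 1 library. The third, 70 kb away in Ctage5, had a ratio of 3.95 ± 2.24 (negative binomial adjusted p = 0.0129), with library a well below b and c. The expected count depends on distance and not on side. On summed counts, windows on the favored side that were not called reached ratios of 6.08 at 185 kb and 5.29 at 245 kb. Both lie above the 4.66 of the called window at 70 kb. Others had 4.13 at 85 kb, 4.63 at 200 kb and 0.603 at 130 kb. The window 70 kb away on the other side had 0.238. The part of this one-sidedness in the called ratios was not tested.

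Fbxo9, an F-box protein and the deepest member, had 1 called window, 350 kb away in Gclc, which encodes the catalytic subunit of the first enzyme of glutathione synthesis. The window held 46, 82 and 81 events against 34.1 expected, a ratio of 5.81 ± 1.06, or 6.13 on summed counts (negative binomial adjusted p = 0.01). It stayed called whichever library was left out. Beside the Gclc promoter itself the counts were 19, 27 and 30 against 14.6 expected, a ratio of 5.20 on summed counts.

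Fbxo30 had called windows 135 and 125 kb away. The first, between protein-coding genes, held 5, 14 and 17 events against 4.45 expected (ratio 9.55 ± 2.64, negative binomial adjusted p = 0.000485) and stayed called without any 1 library. The second lies in Shprh, itself a RING ligase (ratio 6.87 ± 1.79, negative binomial adjusted p = 0.0207). Fbxo8_Cep44 had the highest mean ratio over libraries among the members' 28 called 5 kb windows, 14.7 ± 6.88 (negative binomial adjusted p = 0.00744) at 965 kb, and one of 9.02 ± 7.11 (negative binomial adjusted p = 0.0136) at 940 kb, on 22 and 16 events in all. Their libraries disagreed, with 1, 7 and 8 events in a, b and c at 940 kb. On summed counts the ratios were 11.7 at 965 kb and 12.2 at 940 kb. Fbxl18 had 1 window in Rnf216, a RING protein (ratio 5.39 ± 0.759, negative binomial adjusted p = 0.0324), and this window shares a 30-base word with the viewpoint.

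Of the F-box genes listed for a role in red cells, iron or cell cycle exit, Fbxl5 and Fbxo7 had no called window. Fbxo9, described above, is on the same list and had 1. Fbxl5, the iron-sensing subunit that marks IRP2 for removal, had 11545 events and 25.6% of them from 2.5 kb to 1 Mb. Fbxo7, whose loss affects red cells, had 7656 events, and 64.1% of its near events lay on the side of higher coordinates. In the fit without the correction Fbxo7 had 1 called window. Fbxo11 and Fbxw7 met no viewpoint name.

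**Figure D4:**
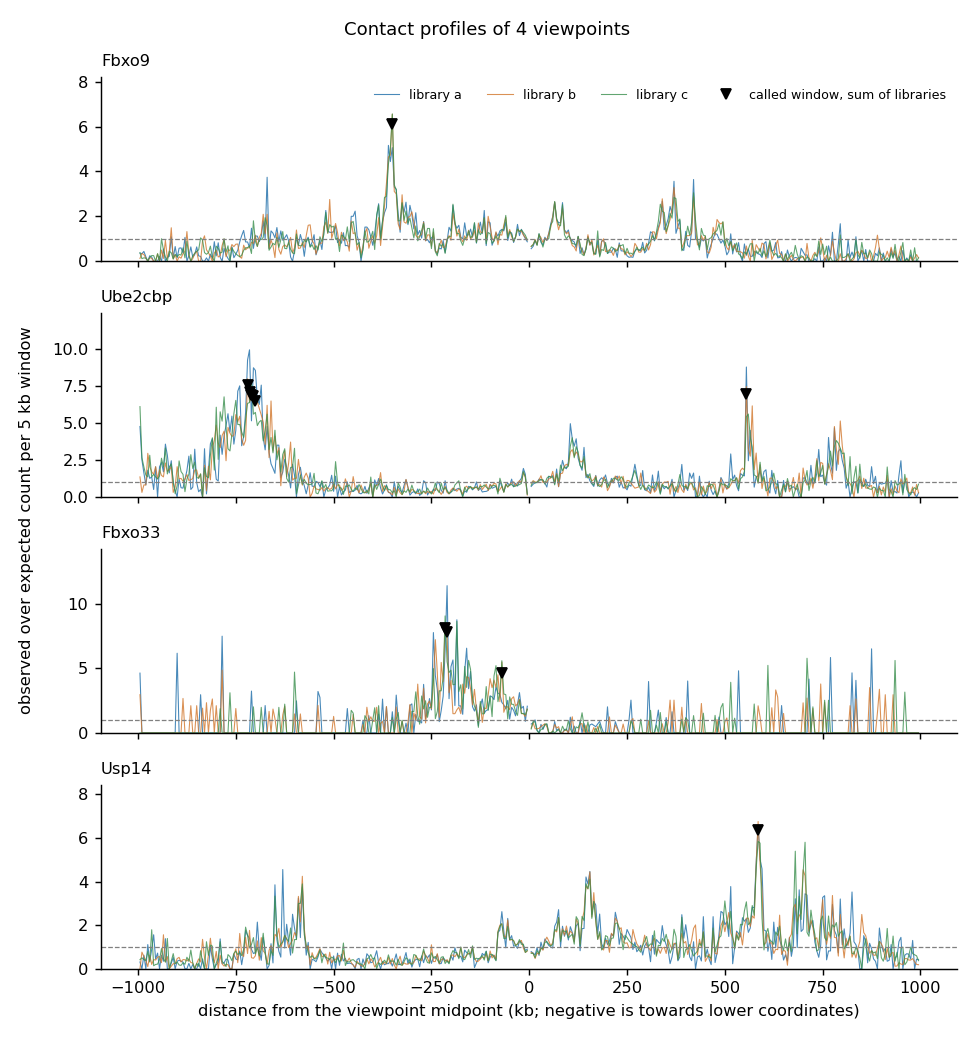
Observed over expected count per 5 kb window (y axis) against distance from the viewpoint (x axis, kb) for Fbxo9, Ube2cbp, Fbxo33 and Usp14 in libraries a, b and c; triangles mark called windows in the sum of the libraries and the dashed line marks expectation. The highest points of the 3 libraries lie within 10 kb of each other for each viewpoint, and the Fbxo33 profile lies above expectation mainly on the side of lower coordinates.

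Among the RING proteins, 5 of 40 tested Rnf viewpoints had a called window (12.5%, against 18.1% of all), 1 each. Rnf111, a ligase of TGF-beta signaling, had the highest ratio, 8.51 ± 1.18 (negative binomial adjusted p = 0.00940), 685 kb away between protein-coding genes, on 7, 12 and 14 events against 3.71 expected. Rnf168, which marks histones at DNA breaks, had a window in Pcyt1a at 175 kb (ratio 5.75 ± 0.256, negative binomial adjusted p = 0.0387). Its library ratios were 5.56, 6.79 and 5.07, again wider than the SD, and it was not called once any 1 library was left out. Rnf146 (45 kb, in Echdc1) and Rnf11 (40 kb, in Ttc39a) had ratios of 4.57 ± 0.850 and 4.52 ± 1.42. Rnf139 had 47, 67 and 65 events in Tatdn1, 40 kb away, against 52.3 expected, a ratio of 3.39 ± 0.0865 (negative binomial adjusted p = 0.0238). None of these 5 was called in every leave-one-out fit. Rnf123, whose level rises late in red cell maturation, and Rnf41, which acts on cytokine receptors, had 6870 and 12519 events and no called window.

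Contacts near other promoters were read 1 to 2 fragments away from each other viewpoint, because targeted fragments themselves are left out of the deposited contacts. Members had 1.43 ± 0.0401 times (SD, n = 2) the expected count there, with 1.40, 1.46 and 1.46 in a, b and c, and all viewpoints had 1.42 ± 0.0147. By family the ratio was 1.69 ± 0.0344 for Usp and Otub, 1.5 ± 0.0208 for Ube2, 1.45 ± 0.0646 for Rnf and 1.11 ± 0.0907 for F-box members. The F-box value was the lowest in each library. The difference between families was not tested, and deep viewpoints weigh most in it: Fbxo9, the deepest, had 0.84, while the median over F-box viewpoints was 1.36. That median was still below those of the Rnf (1.55), Ube2 (1.7) and Usp and Otub (1.8) viewpoints.

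**Figure D5:**
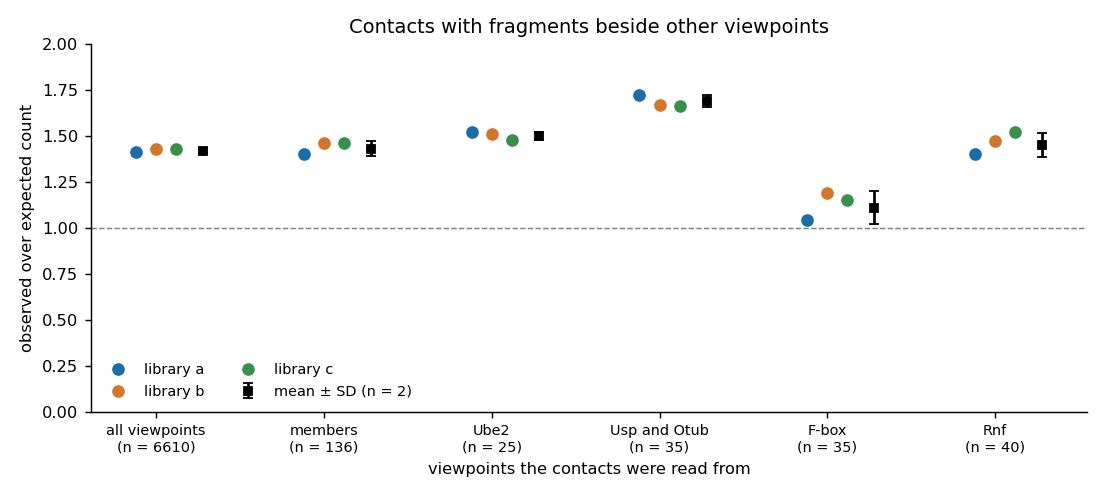
Observed over expected count (y axis, from 0) at fragments beside other viewpoints, for all viewpoints, all members and 4 member families; colored points are libraries a, b and c and squares with bars are mean ± SD of library a and the mean of b and c (n = 2). Members and all viewpoints lie together near 1.4, Usp and Otub members lie highest and F-box members lowest.

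Of the single promoter pairs with at least 5 events expected, the highest ratios were 6.62 for Usp14 with Snrpd1, 6.52 for Ube2cbp with Ibtk and 5.49 for Rnf113a1_Ndufa1 with Pgrmc1. The targeted fragments of Snrpd1 and Ibtk overlap called windows described above. Events beside them can be counted in both, so their ratios are not readings independent of those windows. Pairs of members within 1 Mb of each other were mostly too thin to read. Rnf114_Spata2 and Ube2v1, a partner of Ube2n, lie 139 kb apart, with a ratio of 6.89 read from the first (20 events) and 2.04 from the second (23 events). Fbxl18 and Rnf216, 217 kb apart, had 2.61 and 2.99 on 11 events each. Fbxo6 and Fbxo44, neighboring F-box genes 8.98 kb apart, had 1.32 and 0.81. These ratios were not tested.

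Other genes of the pathway were described from a list that held 63 genes besides the members. Of these 58 were in the viewpoint list, and 10 of their 56 tested viewpoints (17.9%) had a called window, 20 windows in all, a share close to the 18.1% of all viewpoints. Among them were Uba6, an E1 enzyme (3 windows), and Uba1, the main one (1), the ubiquitin gene Ubb (4), the cullins Cul1 (1) and Cul4a (3) with their exchange factor Cand1 (2), Wdr26 of the CTLH ligase (1), and the deubiquitinases Otud6b (2) and Psmd14 (2). None of the 9 tested viewpoints of HECT and other ligases had one.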

How the data were processed

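Contacts were measured by NuTi Capture-C in 3 libraries of ter119+ cells. The authors' processing, per their methods and notes, trimmed reads with Trim Galore, aligned them to mm9 with Bowtie, removed PCR duplicates and counted unique ligations with CCseqBasic, then used CaptureCompare for scaling. In the deposited file each signal is the number of reporters for every 100000 cis reporters that the viewpoint had in that library. In each library 100% of values above 0 were whole multiples of the lowest value of their viewpoint, within 0.01 reads, and counts were worked back from it (18230099, 34428035 and 34233560 cis events in a, b and c).

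Fragments came from a DpnII digest of mm9. The expected count was the mean share in 1 of 50 distance bins times the total of the viewpoint, for listed fragments that were not targeted. Windows from 2.5 kb to 1 Mb were tested with a negative binomial upper tail on the summed counts (SciPy 1.17.1), for viewpoints with at least 1000 events, with Benjamini-Hochberg adjustment over all windows of all viewpoints. The dispersion left out the highest 1% of standardized counts. In counts simulated from the fitted model, this gave a median dispersion of 0.202 where 0.231 had been put in. Of the simulated windows that had not been raised 20 were called, against 5 with a correction. Of 200 windows raised 5 times, 134 were called, against 122. The value put in was that of the corrected fit, so the simulation does not show which real calls are false. The correction was added once the first outcome, 56 called windows at 22 members, was known. The corrected fit called 28 windows at 15. Intervals and p-values cover counting error and this dispersion only, and PCR duplicates were removed by the authors without molecular identifiers.

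The members, gene lists and tests were chosen with earlier results of these data known. Named genes followed a rule: per family the member with most called windows and the one with the highest ratio, the 5 deepest and shallowest, a list of genes with a role in red cells, iron or cell cycle exit, member pairs within 1 Mb, the 10 highest ratios, and the extremes of side and near share. The other deposited file lists viewpoint positions. Alternatives were the dispersion, window width, depth, range, library demand, threshold, expected count and leaving out each library. Lists of other pathway genes and markers are given in the text. Some items that this rule or these lists name are not reported here.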

Additional observations from a re-analysis of the deposited data

How the results depend on the processing

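The members' 28 called windows became 7 at an adjusted p of 0.01, 9 with no counts left out of the dispersion, and 56 without the correction of the dispersion (chosen after seeing the data), all 28 being among those 56. Leaving out a library gave 11 to 19 windows, 15 without library b and 11 without c. The 15 members with a window became 5 at 0.01, 6 with no counts left out and 24 with 2 kb windows, and 7 to 11 with a library left out, 7 of them without c. In every alternative fit the members' share with a window stayed below that of all viewpoints, closest with 2 kb windows (17.5% against 18.8%). Leaving out windows with a shared 30-base word, also chosen after seeing the data, left 27 windows at 14 members. The other alternatives gave 21 to 40 windows, but not all the same ones. Of the 28, 14 were overlapped by a called window of 2 kb, 17 by one of 10 kb, 20 by windows from 20 kb, 24 with 5000 events, 25 with the other expected counts or 0.1% left out, and all 28 with no demand on single libraries. The single called fragment became 2 with 0.1% left out of the dispersion, and 4028 under Poisson counts, where 176231 were called over all viewpoints. It stayed 1 in the other fits.

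The ratio beside other viewpoints was 1.45 on summed libraries. It became 1.15 at fragments 1 place away, 1.58 at 1 to 5 places, 1.61 from 20 kb and 1.92 with viewpoints weighted equally. With a library left out it was 1.44 to 1.46. The lowest of these values was thus that of the fragments closest to the other viewpoints, where all viewpoints had 1.24. The median near share of 42.6% became 32.4% from 20 kb, where all viewpoints had 32.2%. The median of the larger side, 56.1%, became 56.5% at 5000 events, 57.5% from 20 kb and 56.0% without chromosome X and the chromosome 9 stretch, and 56.0% to 56.6% with a library left out. No paired analysis was possible because the libraries form 1 group and their columns carry no replicate number. Depth limits all calls: a window with few expected events needs a high ratio to pass, and 9 members were too shallow to test.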
